A study of Homo sapiens with 2 samples.

Results

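The human nudix hydrolase genes NUDT1, NUDT2, NUDT3, NUDT4, NUDT5, NUDT9, NUDT13, NUDT21 and DCP2 were examined beside NUDT6, a nudix gene whose transcript was the target of the siRNA used. The 9 genes were taken by name as relatives of NUDT6, and every probe set annotated to exactly 1 of their symbols was read, which gave 22 probe sets. They stand among 19775 genes with such a probe set. The study asked how the FGF2 gene is regulated by an RNA transcribed from its opposite strand, FGF-AS, which is the NUDT6 transcript. RNA came from Seg-1 cells, a line once taken for esophageal adenocarcinoma that per the labels is H460, derived from a lung cancer. On one array was RNA of cells given an siRNA against FGF-AS, and on the other RNA of cells given a negative control siRNA with no match to any known gene. Both cultures were reverse transfected and harvested at 72 hours, at a final siRNA concentration that the labels give only as a range from 25 to 200 nM. An untransfected culture was not analysed here. With 1 array per siRNA, no ratio could be checked against replicates, and the report holds no p-values.

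Nudix hydrolases share a short signature sequence, the nudix box, and split substrates in which a nucleoside diphosphate is linked to a further group. Their members clear oxidised nucleotides, signalling dinucleotides, ADP-ribose and nucleotide cofactors, and some act on inositol pyrophosphates or on the cap of messenger RNA. The family shares a fold rather than long stretches of identical coding sequence. Its other members are read beside NUDT6 at the level of RNA. With little shared sequence, unchanged members say little about how specific a knockdown of NUDT6 was.

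Each probe set, a group of short oligonucleotides on the Affymetrix array, gave 1 signal per array, on a linear intensity scale. The highest signals were 21359.6 (control) and 20791.3 (FGF-AS siRNA), and the medians were 25.6 and 23.1. All ratios below are FGF-AS siRNA over control on the log2 scale after 6.1 was added to each signal, which understates the change of dim probe sets. A gene stands by its brightest probe set and counted as measured at a mean signal of at least 23.9 (rounded from 23.85, the median over probe sets), as 12352 genes did. The SD of the log2 ratio between measured probe sets of a gene was pooled over every gene with 2 or more in the signal class. It was 0.36 for probe sets at or above a mean signal of 145.2 (rounded from 145.15, 3050 genes) and 0.58 for dimmer ones (2365 genes). That SD covers the disagreement within these arrays only, and neither cultures nor hybridisations. Epithelial keratin genes were bright on both arrays (KRT18 10152.5 with control and 9327.2 with FGF-AS siRNA, KRT8 3475.7 and 3780.9, KRT19 316.5 and 311.6). The epithelial marker EPCAM (34 and 43.8) was measured but dim, and the epithelial cadherin gene CDH1 (0.9 and 18.4) was under the minimum. None of 3 squamous markers was measured (KRT5, KRT14 and TP63). Of 3 intestinal markers, VIL1 (21.2 and 27.8) and MUC2 (36.8 and 16.2) were dim, and CDX2 (2.8 on both arrays) was under the minimum. Of 4 lung epithelial markers, whose signals summed to 182.3 and 212.9, 3 were measured but dim (SFTPB 110.8 and 98, SFTPC 14.7 and 59.1, NAPSA 31.9 and 44), and the lung regulator NKX2-1 (24.9 and 11.8) was under the minimum. Of 5 fibroblast markers, summing to 228.6 and 235.5, COL1A1 was bright (164.3 and 151.6), DCN was dim and 3 were under the minimum. Dim signals above the minimum came from 2 of 4 leukocyte markers, CD3E and CD14 (sum of the list 72.3 and 88.5). Of 3 endothelial markers, 1 was measured but dim, PECAM1 (43.2 and 55.7, sum of the list 50.7 and 70.5). The part of other cell types in the ratios was not tested. In RNA from whole cultures, fewer cells of a kind and less RNA per cell cannot be told apart.

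The transcript of NUDT6 read 3.26-fold to 3.46-fold lower with FGF-AS siRNA, and none of the measured nudix members read 2-fold away from control on its brightest probe set. On the brighter NUDT6 probe set (230329_s_at) the signal was 376.9 with control and 104.5 with FGF-AS siRNA, 3.46-fold lower and a log2 ratio of -1.79 (SD 0.36). On the other (220183_s_at) it was 267 and 77.8, a log2 ratio of -1.70. Of the 9 member genes 8 were measured, with ratios from -0.81 (NUDT13) to 0.28 (NUDT2) and a median of -0.10, beside a median of -0.02 over all measured genes. Of these 8, 5 had a ratio below 0 and 3 above, and 51.8% of all measured genes lay below 0. None was 2-fold lower or higher, where 2-fold or more separated 2.72% of all measured genes downward and 2.05% upward. With shares this small, that count does not set the 8 members apart from other genes. At 1.5-fold, 2 of 8 were lower (NUDT3 and NUDT13) against a background of 9.52%, and none was higher against 7.96%. Both NUDT6 probe sets had a lower ratio than each of the 18 measured member probe sets.

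**Figure D1:**
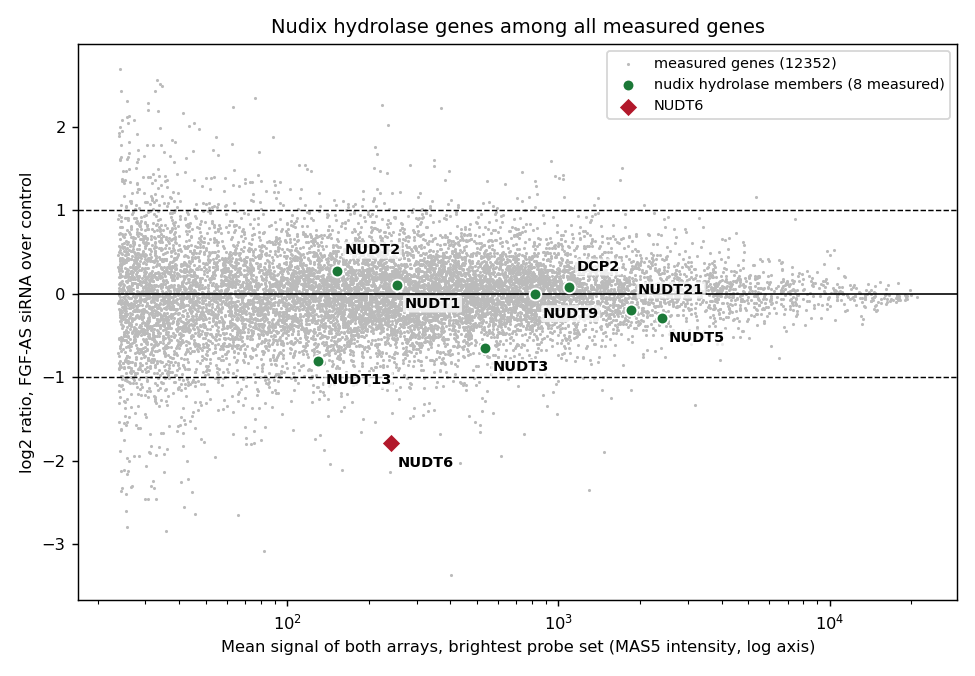
Log2 ratio of FGF-AS siRNA over control (vertical axis) against mean signal of both arrays (horizontal log axis, MAS5 intensity) for the brightest probe set of each of 12352 measured genes, with 1 array per siRNA and dashed lines at 2-fold. NUDT6 (diamond) lies at -1.79, and the 8 measured members (circles) lie between -0.81 and 0.28, inside the dashed lines.

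NUDT1, also known as MTH1, removes oxidised purine nucleoside triphosphates before they can be built into DNA. Its single probe set (204766_s_at) read 244.4 with control and 264.4 with FGF-AS siRNA. The log2 ratio of 0.11 was smaller than the SD of 0.36, so the arrays showed no difference in NUDT1 beyond the disagreement of probe sets.

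NUDT2, the hydrolase of the dinucleotide diadenosine tetraphosphate, gave a signal of 137.3 with control and of 167.9 with FGF-AS siRNA (218609_s_at, its single probe set). The ratio, 0.28 on the log2 scale, was the highest among the members and still under the SD of 0.36. It lay at percentile 78.0 of all measured genes.

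NUDT9 and NUDT5, which act on ADP-ribose, stayed within the SD of 0.36 on every probe set. NUDT9, a mitochondrial ADP-ribose pyrophosphatase, was nearly equal on the arrays, with a signal of 824.2 with control and 821.4 with FGF-AS siRNA (218375_at) and a log2 ratio of -0.0049. NUDT5, which cleaves ADP-ribose and other ADP sugars, read 2650.7 and 2159.8 on its brighter probe set (223100_s_at), a log2 ratio of -0.29. Its other probe set (222824_at) read 593.4 and 640.5, a log2 ratio of 0.11. The NUDT5 probe sets thus lay on either side of 0, each within the SD of 0.36.

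NUDT13, a mitochondrial nudix protein that acts on dinucleotide cofactors, had the lowest ratio of the measured members. Its brighter probe set (214136_at) read 167.4 with control and 93.2 with FGF-AS siRNA, 1.75-fold lower and a log2 ratio of -0.81, beyond the SD of 0.58 that holds for dim probe sets. Its other probe set (207917_at) read 76.6 and 86.9, a log2 ratio of 0.17 in the opposite direction. A lower NUDT13 therefore rests on 1 of 2 probe sets, and their mean ratio was -0.32. The gap of 0.97 between them was wider than in 87.5% of the 3331 genes with 2 measured probe sets, whose median gap was 0.35.

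NUDT3, a diphosphoinositol polyphosphate phosphohydrolase that trims inositol pyrophosphates, was the member whose probe sets most often read lower. Its brightest (212605_s_at) read 655.7 with control and 415.8 with FGF-AS siRNA, 1.57-fold lower and a log2 ratio of -0.65. The next (211976_at) read 498.4 and 431.3, a log2 ratio of -0.21 and inside the SD of 0.36. The third (212608_s_at) read 555.4 and 343, a log2 ratio of -0.69. All 4 measured probe sets of NUDT3 lay below 0, with a mean log2 ratio of -0.70. The dimmest of them (211973_at) read 167.8 and 65.8, a log2 ratio of -1.27 that was the only one among the members' measured probe sets past 2-fold. A further probe set (1569990_at), at 8.6 and 29.1, was under the minimum and went the other way.

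The log2 ratio on the brightest NUDT3 probe set lay at percentile 4.26 of the 7719 genes at or above the stricter minimum. Probe sets annotated to NUDT3 together with RPS10-NUDT3, a gene model that joins NUDT3 to the ribosomal protein gene RPS10, were not counted. One of these (229803_s_at) read 641.8 with control and 236.3 with FGF-AS siRNA, a log2 ratio of -1.42, while on the other (221579_s_at) the signals were 322.5 and 302.4, for a ratio of -0.09. The size of the NUDT3 difference thus depended on the probe set, between -1.42 and -0.09 over the 6 bright enough to count, the shared ones included. Which transcripts of NUDT3 each probe set detects was not tested.

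NUDT4, a second enzyme of the same inositol pyrophosphate group, could not be assessed on its own. Its 3 single-gene probe sets were all under the minimum: 212182_at read 20.8 with control and 16.9 with FGF-AS siRNA, 227683_x_at read 26.2 and 2.2, and 229836_s_at read 2 and 15.7. They did not go the same way, and no fold is given. Brighter probe sets shared by NUDT4 with the near-identical gene NUDT4B, and 3 of them also with the pseudogene NUDT4P2, read 572.8 and 513.7 (206302_s_at), 450.1 and 459 (212181_s_at), 222.6 and 185.8 (206303_s_at), and 148.7 and 97.2 (212183_at). Their log2 ratios of -0.16, 0.03, -0.25 and -0.58 were all nearer to 0 than either NUDT6 ratio, and signals of these copies cannot be told apart.

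NUDT21 and DCP2 are the members that act on messenger RNA. NUDT21 is the RNA-binding subunit of cleavage factor I, which guides the choice of polyadenylation site and binds RNA without hydrolysing it. Its brightest probe set (202697_at) read 1976.7 with control and 1722.2 with FGF-AS siRNA, a log2 ratio of -0.20. A nearly as bright one (224830_at) read 1436.8 and 2165.2, a log2 ratio of 0.59, and the third (213461_at) read 491.2 and 330.4, a log2 ratio of -0.56. The last of these exceeded the SD of 0.36 downward and the one before it upward, so NUDT21 showed no common direction, and the mean over its probe sets was -0.06. Their spread of 1.15 was wider than in 82.5% of the 1664 genes with 3 measured probe sets, against a median of 0.61. Whether the probe sets report different ends of NUDT21 transcripts was not tested.

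DCP2, the catalytic subunit of the complex that removes the cap of messenger RNA, read 1067.2 with control and 1127.3 with FGF-AS siRNA on its bright probe set (212919_at), a log2 ratio of 0.08. The 3 dimmer ones lay below 0. Probe set 235258_at read 179.7 and 124.9, a log2 ratio of -0.50. Probe set 244777_at read 143.7 and 134.5, a log2 ratio of -0.09. Probe set 238779_at read 47.6 and 24.5, a log2 ratio of -0.81. The brightest DCP2 signal thus differed by less than the SD, whereas 2 dimmer probe sets were lower by more than the SD of their class. The mean over the 4 was -0.33.

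**Figure D2:**
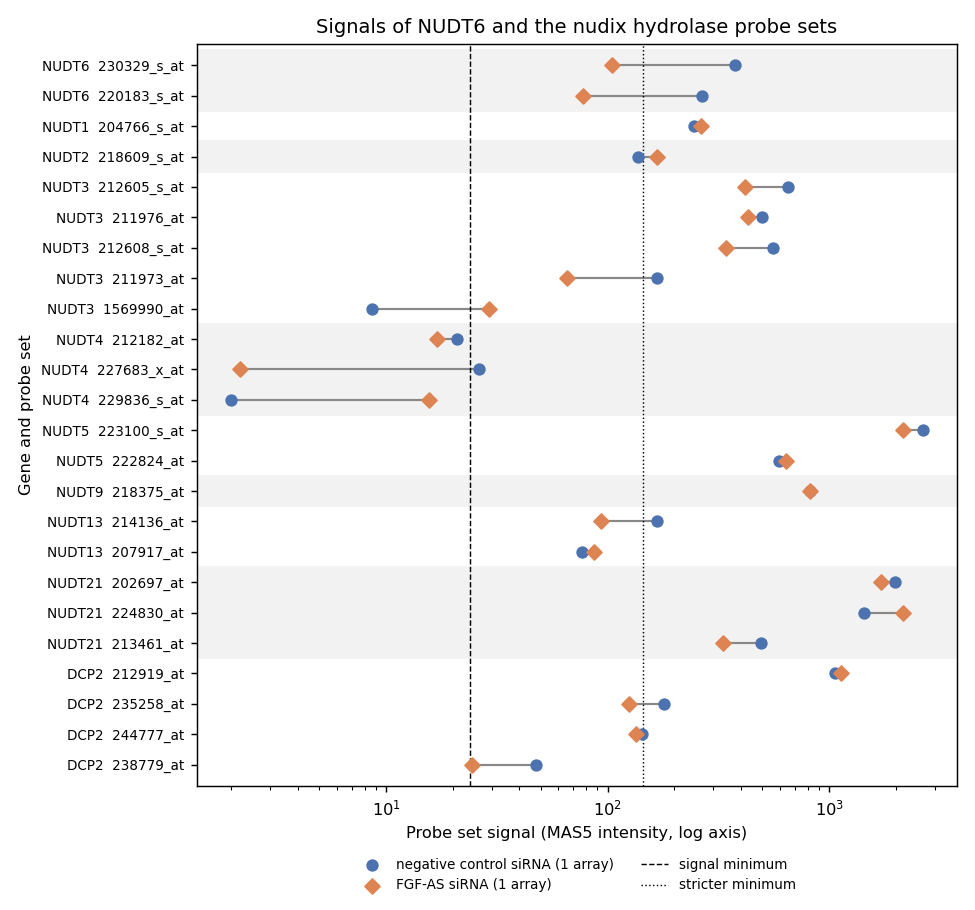
Signals on the control array (circles) and the FGF-AS siRNA array (diamonds) for the 2 probe sets of NUDT6 and the 22 of the members, on a log axis of MAS5 intensity, with 1 array per siRNA and vertical lines at the signal minimum and the stricter minimum. The NUDT6 signals lie far apart (376.9 against 104.5 and 267 against 77.8), while the arrays nearly coincide for NUDT1, NUDT9 and the brightest DCP2 probe set.

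Taken by probe set, 5 of the 18 measured member probe sets were at least 1.5-fold lower, against 15.1% of the 23222 measured single-symbol probe sets. They were 3 of NUDT3, 1 of NUDT13 and 1 of DCP2, so they come from 3 genes, and probe sets of a gene are no replicates. One, of NUDT21, was at least 1.5-fold higher, against 7.53%. The median over the 18 was -0.20, beside -0.07 over all such probe sets. The ratio was beyond the SD of its class in 8 of the 18, against 32.1% of all such probe sets, and beyond 2 SD in 1 (211973_at of NUDT3), against 8.44%. The ratios of NUDT6 were 5.01 and 4.76 times the SD.

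**Figure D3:**
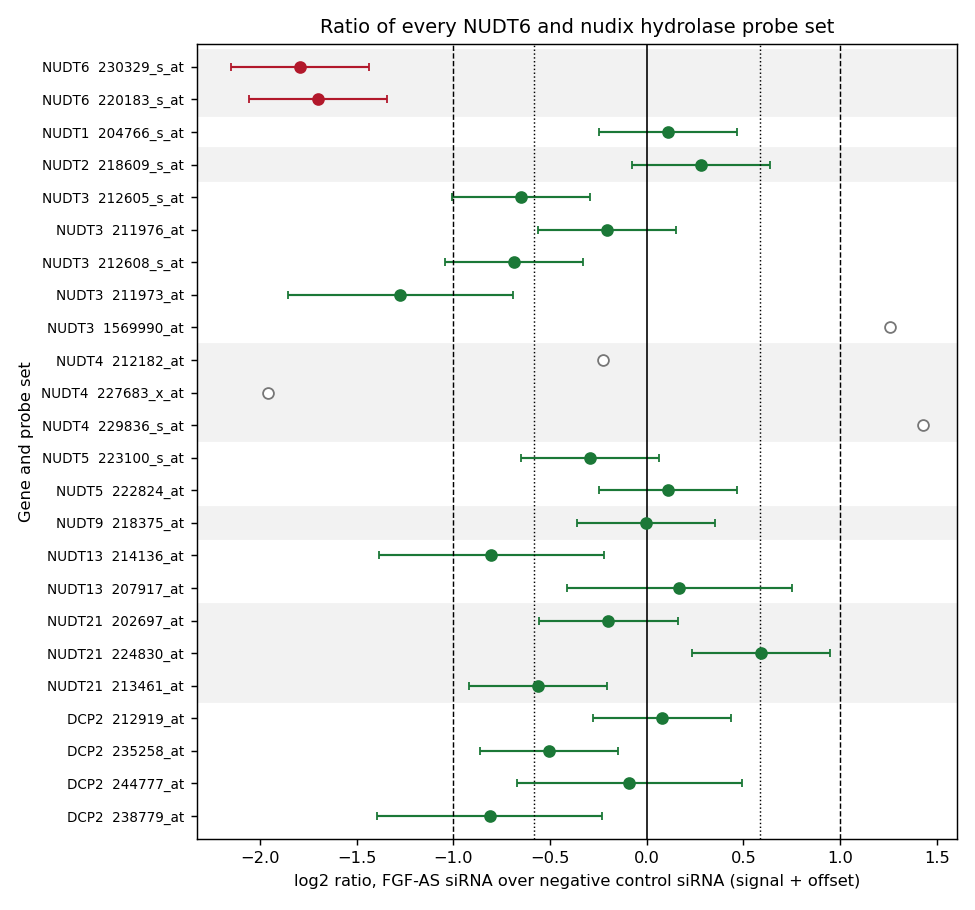
Log2 ratio of FGF-AS siRNA over control for each probe set of NUDT6 (red) and of the members (green), with bars of 1 SD between probe sets of a gene (0.36 for bright, 0.58 for dim) and lines at 1.5-fold (dotted) and 2-fold (dashed). Open circles are probe sets under the signal minimum, which carry no bar. NUDT6 stands at -1.79 and -1.70, NUDT3 is below 0 on its 4 measured probe sets, and NUDT5, NUDT13, NUDT21 and DCP2 each have probe sets on both sides of 0.

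Set directly against NUDT6 by brightest probe sets, each measured member had a ratio that was higher by 0.99 to 2.07 on the log2 scale. The smallest gap was to NUDT13 (0.99, with an SD of the difference of 0.68) and the next to NUDT3 (1.14, SD 0.51). For the other 6 measured members it was larger still, up to 2.07 (NUDT2), with the same SD of 0.51. Other probe sets of NUDT3 came nearer to NUDT6, with 211973_at at -1.27 and 229803_s_at, shared with RPS10-NUDT3, at -1.42. NUDT6 itself had close agreement between its probe sets, 0.09 apart, against a median gap of 0.35 over genes with 2 measured probe sets. The siRNA's sequence was not used here, and a match between it and any member transcript was not tested.

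The rest of the family was spread around 0 as well. Of 17 other nudix genes 14 were measured, of which 8 were below and 6 above 0, with a median log2 ratio of -0.10. The lowest was NUDT7, a peroxisomal coenzyme A diphosphatase, at -0.80 (162.2 with control and 90.5 with FGF-AS siRNA). The highest was TRPM2, a cation channel with a nudix-like domain that binds ADP-ribose, at 1.09 (58.1 and 130.4). TRPM2 was the only one past 2-fold on the brightest probe set and was dim. NUDT17 stood at -0.48 on its brightest probe set (122.3 with control and 85.8 with FGF-AS siRNA). Its other measured probe set, also dim, was past 2-fold lower, at -1.38 (103.5 and 36). NUDT11, which acts on inositol pyrophosphates like NUDT3, stood at 0.31 (324.7 and 402.8), opposite to NUDT3 and inside the SD of 0.36.

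Partners of the RNA-acting members gave no common direction. Of 21 measured genes of decapping and decay from the 5′ end, 10 were below and 11 above 0, with a median of 0.04. Lowest was LSM14B, a P-body protein gene, at -0.95 on its brightest probe set (140.6 and 69.6) and between -0.98 and -0.01 on 2 others. Highest was LSM7, a subunit of the ring that binds messenger RNA ends, at 0.97 (1520.9 and 2975.6). Of the decapping cofactor genes next to DCP2, DCP1B stood at -0.89 (267.3 and 141.8) on its only measured probe set. DCP1A stood at 0.04 (373.9 and 383.6) on its brightest and at -0.23 (323.6 and 274.5) on another. Of 18 measured genes of 3′ end processing, 8 were below and 10 above 0, with a median of 0.02. The dim CPSF1 was lowest at -0.98 (88.3 and 41.6), and CPSF6, which binds NUDT21 in cleavage factor I, was highest at 0.29 (1271.1 and 1555.7). Of CPSF6, 1 further probe set gave -0.20 and another 0.37.

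Genes around the substrates of the other members were alike in this. Of 12 measured genes of oxidised base repair and the nucleotide pool, 6 were below and 6 above 0, with a median of 0.02, from SMUG1, a uracil DNA glycosylase, at -0.58 (551.8 and 367.2) to UNG, another, at 0.39 (808.1 and 1061.1). Of 8 measured inositol phosphate kinases, 5 were below and 3 above 0, with a median of -0.23, from ITPKC at -0.66 (87.2 and 52.9) to PPIP5K1 at 0.50 (99.2 and 143.1), both dim. Of 13 measured genes of ADP-ribose and NAD metabolism, 7 were below and 6 above 0, with a median of -0.08. The lowest, the NAD synthesis gene NMNAT1, was at -1.36 on a dim probe set (62.4 and 20.5) and at -0.19 on another, and the highest, PARG, which degrades poly(ADP-ribose), was at 0.49 (190.6 and 270.1). Of 4 genes tied to diadenosine polyphosphates 3 were measured, APTX at -0.35 (417.8 and 327.4), KARS1 at 0.05 and HINT1 at 0.07 (8936.6 and 9365.4). Of the 89 measured genes of these 7 lists, 1 (NMNAT1) was at least 2-fold lower and 1 (TRPM2) higher on the brightest probe set. The shares of all measured genes were 2.72% and 2.05%. Dimmer probe sets of IPMK (-1.45, 43.3 and 12) and OGG1 (-1.12, 35 and 12.8) were also past 2-fold lower. Their brightest probe sets stood at -0.43 and -0.06.

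**Figure D4:**
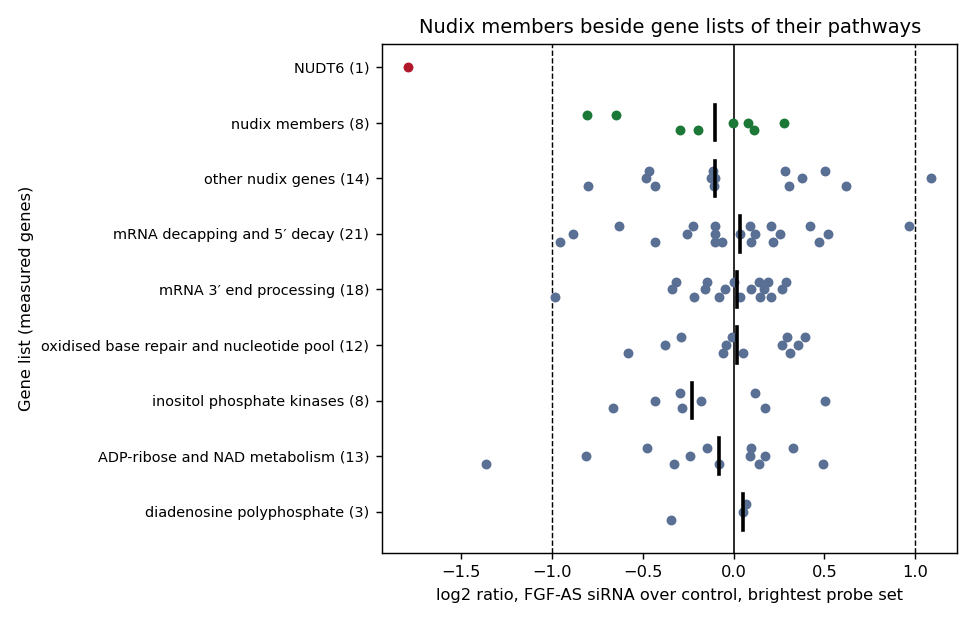
Log2 ratio of FGF-AS siRNA over control for the brightest probe set of each measured gene (points; number of genes in brackets) in NUDT6, the members and 7 gene lists, with a black bar at each median and dashed lines at 2-fold. The vertical scatter within a list carries no value. Medians of the members and the lists lie between -0.23 and 0.05, while NUDT6 lies at -1.79.

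Across the genome the split of genes past 2-fold into 253 higher and 336 lower, or 43.0% higher, depended on how the arrays were scaled. The share of higher genes was 60.4% under quantile normalization and 57.6% under loess. Under median centring, quantile normalization and loess, 4 of the 8 measured members lay below and 4 above 0, with NUDT9 crossing 0, and NUDT3 and NUDT13 remained the 2 members at least 1.5-fold lower.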

How the data were processed

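RNA of 1 culture per siRNA was hybridised to Affymetrix U133 Plus 2.0 arrays. The authors deposited linear intensities, 1 per probe set and array, made with GCOS and MAS5 per the submitters' processing notes, which give no version, role or scaling target; how the arrays were scaled to each other stays unknown. Detection calls and probe-level data were not used here, so a low signal cannot be told from background, and the number of arrays limits the precision.

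Of 54613 probe sets that were no Affymetrix controls, 41091 carried 1 gene symbol, 1801 several and 11721 were unnamed here. Gene identifiers were matched to symbols in RefSeq (GRCh38.p14), which held 41037. Ratios were log2(treated + 6.1) minus log2(control + 6.1), treated meaning FGF-AS siRNA and the offset being percentile 25 of all signals, with no further scaling. The SD pooled the variance of that ratio between measured probe sets of a gene. Named beside all members were the highest and lowest gene of each list and every list gene past 2-fold on its brightest probe set. NUDT11, NUDT17, DCP1A, DCP1B and KARS1 were named after their values were seen. So were LSM14A, PNRC2, DDX6, XRN1, IPMK and OGG1. The members and lists were chosen with earlier results of these data known. Alternatives covered the offset, scaling, minimum and choice of probe sets. The functions were checked on simulated data. Python 3.11.15, pandas 2.3.3 and statsmodels 0.14.6 were used. No sequences of probes, siRNA or proteins were used here.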

Additional observations from a re-analysis of the deposited data

How the results depend on the processing

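Ratios were recomputed under 9 alternatives where a value could be had. The ratio of NUDT6 ran from -1.84 to -1.64, and no ratio of a member at least 1.5-fold from control changed sign. No member reached 2-fold under any of the 9. Leaving out probe sets ending in _s_at or _x_at moved NUDT3 to -0.21 and NUDT5 to 0.11, and it left NUDT6, NUDT1 and NUDT2 without a value. The mean over probe sets moved DCP2 to -0.33. The number of members at least 1.5-fold from control was 1 in place of 2 at the stricter minimum (where NUDT13 is not measured), with the mean over probe sets (NUDT13 at -0.32) and without _s_at and _x_at probe sets (NUDT3 at -0.21). The median over the members ran from -0.20 to -0.0049. The number of measured genes at least 2-fold from control was 589, and it was 294 with the offset at the median signal of 24.3, 162 at the stricter minimum and 2344 with no minimum. NUDT4 lay under the minimum and entered the median with no minimum set, but in no other setting. No paired analysis was possible because each group holds 1 array, and no array could be left out.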

Other observations

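NUDT6 and FGF2 overlap on opposite strands, and 4 of the 8 members with a strand in the RefSeq table also overlap a gene on the opposite strand by their spans, a search chosen after the data were seen. FGF2 read 676.2 with control and 911.8 with FGF-AS siRNA on its brighter probe set (log2 ratio 0.43), and 326.7 and 338.8 on the other (0.05). NUDT5 overlaps SEC61A2, a homologue of the protein translocation channel subunit. SEC61A2 was dim and read 45 and 104.9 on one measured probe set (219499_at, log2 ratio 1.12) and 40.8 and 57.6 on the other (228747_at, 0.44), while the probe sets of NUDT5 stood at -0.29 and 0.11. A further SEC61A2 probe set, at 14.6 and 11.7, was under the minimum. NUDT4 overlaps UBE2N, a ubiquitin-conjugating enzyme gene, whose 3 probe sets gave 0.15, 0.01 and 0.31. DCP2 overlaps MCC, whose probe sets gave -0.25 and -0.12. NUDT2 overlaps the kinesin gene KIF24, which was under the minimum (5.8 and 0.4). SEC61A2 was the only one of the 3 measured partners of members past 2-fold, on 1 of its 2 measured probe sets, against 2.05% of all measured genes that far up.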
